A study of Homo sapiens with 32 samples.

Results

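AsPC1 cells in which CRISPR interference (CRISPRi) was aimed at the P1 promoter of HNF4A were compared with AsPC1 cells carrying a control guide, by the sites that HNF4α occupied. AsPC1 is an established human pancreatic ductal adenocarcinoma line, and CRISPRi silences a promoter by bringing a repressor to it with a guide RNA. The comparison uses 4 of the 32 libraries of the series. They are chromatin immunoprecipitations with a pan-HNF4α antibody, which recognises P1 and P2 isoforms alike. They came from sgP1 cells (2 libraries, whose titles read sgP1E) and from sgNC control cells (2 libraries). The title does not by itself give the number of P1 guides used. Overlapping peaks of the 4 lists were merged into 26867 regions. A region with a peak in both sgNC lists and in neither sgP1 list is called lost, the reverse is called gained, and a region with a peak in all 4 lists is called kept. By this rule 2411 regions were lost (8.97% of all regions), 110 were gained (0.409%) and 8589 were kept (32.0%).

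Further lists from the same series served as independent readouts of these regions. In AsPC1 they were pan-HNF4α libraries of cells with CRISPRi of P2 (sgP2) and libraries of sgP2 and sgNC cells made with an antibody against P1 isoforms. In Panc10.05 and BxPC3, both pancreatic ductal adenocarcinoma lines, they were pan-HNF4α libraries of cells that expressed P1-α2 or P2-α8, isoform α2 of P1 or α8 of P2, under doxycycline. The doxycycline dose was 500 ng/mL in BxPC3, whereas in Panc10.05 it was 12.5 ng/mL for P2-α8 cells and 25 ng/mL for those with P1-α2. Each group held 2 libraries, and the labels do not say whether these came from separate cultures, so the spread between them may be technical. Peak lists hold no expression values, so the identity of the line and the depth of P1 repression could not be checked from them.

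HNF4α is a nuclear receptor that binds DNA as a homodimer and controls genes of the liver, gut and pancreas. Its gene has a distal promoter, P2, and a promoter further downstream, P1, and the isoforms from each differ at the N-terminus while sharing the DNA-binding domain. P1 isoforms predominate in adult liver, and P2 isoforms are found in pancreas and stomach. A pan-HNF4α peak therefore does not say which isoform was bound.

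Both HNF4A promoters carried pan-HNF4α peaks in control cells, and they are shown because CRISPRi was aimed at P1. RefSeq sequences of assembly GRCh38.p14 from 250 bases before to 30 bases after each start are printed 5′ to 3′ (P2, chr20:44355449-44355728, plus strand; P1, chr20:44400989-44401268, plus strand). The capital in P2 marks the first transcribed base, and the capitals in P1 mark a pair of ATTAAC runs, the reverse complement of the HNF1 half-site GTTAAT.
HNF4A P2: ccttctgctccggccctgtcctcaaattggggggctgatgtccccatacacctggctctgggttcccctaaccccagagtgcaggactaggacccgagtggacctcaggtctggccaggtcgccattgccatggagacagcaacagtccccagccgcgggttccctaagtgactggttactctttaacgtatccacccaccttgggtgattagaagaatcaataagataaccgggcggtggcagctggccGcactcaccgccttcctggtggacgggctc
HNF4A P1: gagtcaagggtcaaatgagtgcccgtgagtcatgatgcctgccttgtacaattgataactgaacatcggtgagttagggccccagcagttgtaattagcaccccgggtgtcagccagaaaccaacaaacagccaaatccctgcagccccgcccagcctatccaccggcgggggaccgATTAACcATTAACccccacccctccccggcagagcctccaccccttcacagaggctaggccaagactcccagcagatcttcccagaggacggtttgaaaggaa
Neither promoter window, which runs 50 bases past the start, holds the HNF4 motif CAAAGTCCA or its looser form CAAAGNNCA on either strand. The half-site GTTAAT, on either strand, occurs in 5.55% of the 22199 promoter windows of protein-coding genes.

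At HNF4A itself the P2 promoter was kept and the P1 promoter was lost. The P2 region (chr20:44354854-44356002) had a fold enrichment of 20.2 and 17.4 in the sgNC lists and of 14.4 and 12.3 in the sgP1 lists; fold enrichment, here and below, is the authors' own value for a peak over background. Both sgP1 values were below both sgNC values, as in 37.4% of the 8589 kept regions. The P1 region (chr20:44400731-44401585), whose start lies 45.5 kb downstream, had a fold enrichment of 6.21 and 4.49 in the sgNC lists and no peak in either sgP1 list. Its summits in sgNC lay at -245 and -174 bp from the P1 start. Ranked by fold enrichment within a list, with 100 for the strongest peak, the P2 peaks stood at percentiles 91.0 and 91.5 in sgNC and 86.0 and 82.4 in sgP1, and the P1 peaks at 43.0 and 14.5 in sgNC. The P1 peaks were thus among the weaker peaks of the control lists. When every list was cut to its 11686 strongest peaks by fold enrichment, the length of the shortest, the P1 region had no peak in any list, whereas the P2 region remained in all 4. Cut by −log10 p, 1 sgNC list still had a peak at P1. In sgP2 cells the P2 region had no peak, and the P1 region had a peak in replicate 2 (fold enrichment 3.68) and none in replicate 1.

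**Figure D1:**
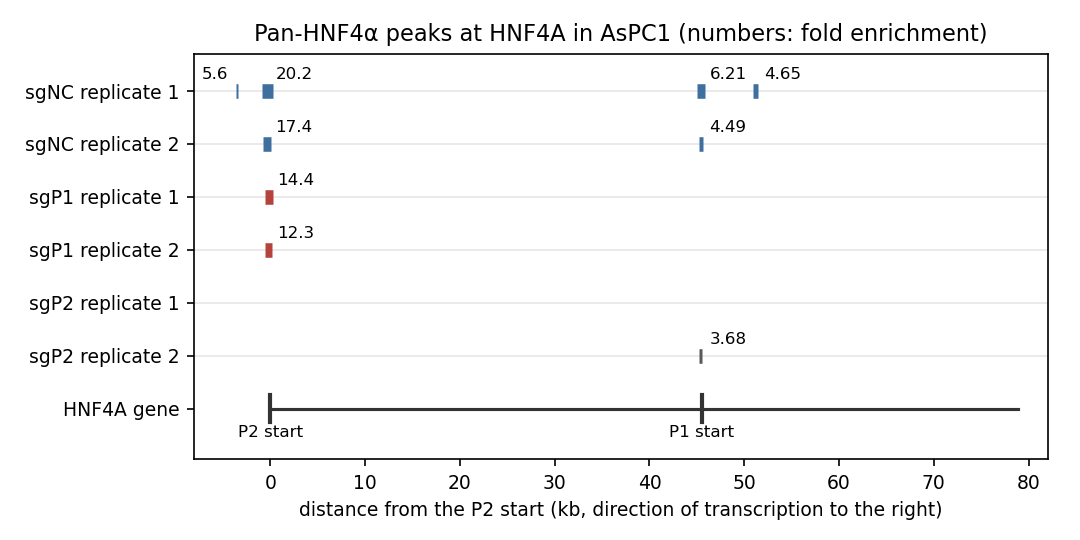
Pan-HNF4α peaks at HNF4A in each AsPC1 library (rows), by distance from the P2 start in kb, with the authors' fold enrichment beside each peak. The P2 peak is present in the sgNC and sgP1 lists and the P1 peak, 45.5 kb downstream, only in both sgNC lists and in sgP2 replicate 2.

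The sgP1 lists were shorter than the sgNC lists. The sgNC lists held 24295 and 15118 peaks (19706 ± 6489, SD, n = 2) and the sgP1 lists 14038 and 11686 (12862 ± 1663, SD, n = 2). The groups did not overlap, but the sgNC lists differed from each other by more than sgNC replicate 2 differed from sgP1 replicate 1. The log2 ratio of sgP1 to sgNC was -0.58, beside a pooled SD between replicates of 0.37 (two-sided exact permutation p = 0.333, 0.667 after Benjamini-Hochberg adjustment over 4 measures of the lists). That p is the smallest that 2 libraries against 2 allow. Without sgNC replicate 1, the longest list, the log2 ratio was -0.24. The covered length was 13.2 and 7.44 Mb in sgNC and 6.94 and 6.0 Mb in sgP1, a log2 ratio of -0.62 (exact permutation p = 0.333, adjusted 0.667), and -0.21 without sgNC replicate 1. Read depth and peak number cannot be told apart from these lists.

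List length bears directly on the lost and gained counts. With every list cut to 11686 peaks by fold enrichment, 837 regions were lost and 615 were gained. Of those 837 lost regions, 697 were also lost with the full lists, and of the 615 gained regions 72 were also gained with the full lists. The imbalance of the full lists, 2411 lost against 110 gained, was therefore much smaller at equal length. Of the 13692 regions in both sgNC lists, 17.6% were lost, 19.7% were in 1 sgP1 list and 62.7% were kept. A further 11666 regions were in exactly 1 sgNC list, and 74.4% of these were in no sgP1 list.

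The lost regions were mostly weak in control cells. When the 13692 regions were split into 10 equal groups by their mean sgNC percentile, the share lost fell with each step, from 49.7% in the weakest group through 31.8% in group 3, 16.1% in group 5 and 4.46% in group 7 to 0.0730% in the strongest. In the strongest group 1368 of 1370 regions were kept. Weak peaks are the first to leave a shorter list, and the sgP1 lists were shorter. Part of this fall therefore follows from how the classes are defined, and how much was not tested. The median fold enrichment of lost regions was 6.26 and 5.27 in the sgNC lists, against 13.2 and 9.29 for kept regions in the same lists. Kept regions had a median of 9.14 and 8.13 in the sgP1 lists. Gained regions were weak as well, with a median of 5.18 and 4.92 in the sgP1 lists. Regions in both sgNC lists and 1 sgP1 list lay between lost and kept regions, at 7.38 and 5.73 in sgNC.

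**Figure D2:**
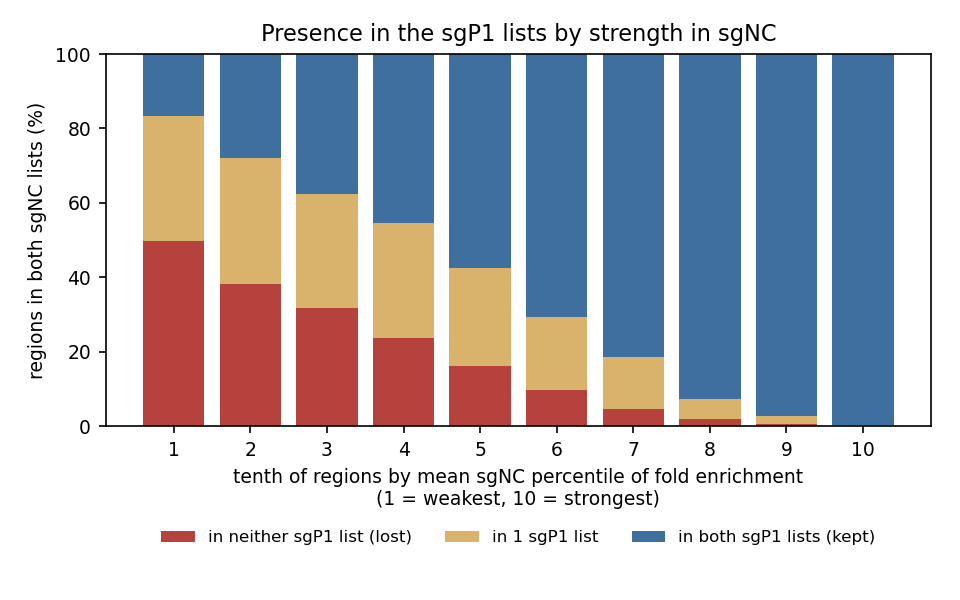
Share of the regions found in both sgNC lists that were in neither, 1 or both sgP1 lists (stacked bars, percent), for 10 equal groups of regions ordered by mean sgNC percentile. The lost share is 49.7% in group 1 and 0.0730% in group 10. The sgP1 lists were shorter, so part of the fall follows from how the classes are defined.

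A few strong control sites were nevertheless missing from both sgP1 lists. Named by the nearest protein-coding gene, the lost region with the highest mean sgNC percentile (chr2:105968441-105969000) lay 74.4 kb outside NCK2, which encodes an adaptor that links receptor tyrosine kinases to the cytoskeleton. Its fold enrichment was 26.2 and 16.8 in sgNC, and the nearest sgP1 peak was 211 and 212 kb away. The region near CNTN3, a cell adhesion gene, had 23.2 and 16.2 in sgNC, with the nearest sgP1 peaks at 40.5 and 40.4 kb. Both regions had a peak in both sgP2 pan-HNF4α lists.

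Several of these sites lay in or close to genes. A region 0.384 kb before the start of ARNT (chr1:150876741-150877225), the dimer partner of hypoxia-inducible factors, had a fold enrichment of 21.3 and 12.7 in sgNC. A region 1.63 kb from the start of RAD18 (chr3:8964703-8965497), a ubiquitin ligase of post-replication repair, had 18.1 and 13.7. A region 7.96 kb from AKR1A1 (chr1:45542634-45543089), an aldehyde reductase, had 19.8 and 14.4. These 3 regions each had a peak in both sgP2 pan-HNF4α lists and in 1 sgP2 list of the P1 antibody. Inside ITPK1 (chr14:93055315-93056096), an inositol phosphate kinase, the values were 19.8 and 14.2, with sgP1 peaks as near as 4.24 and 5.58 kb. Near COL4A2 (chr13:110517638-110518180), a type IV collagen chain of basement membranes, they were 21.8 and 12.2, with sgP1 peaks 2.80 and 9.22 kb away. The neighbouring sgP1 peaks thus did not overlap these regions but lay within 10 kb of them.

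The remaining sites of this set had somewhat lower enrichment. Inside NBPF1 (chr1:16600716-16601611), a member of a family of near-identical copies whose reads may map uncertainly, the values were 17.0 and 12.8, and this region had a peak in both sgP2 lists of each antibody. Near FSCB (chr14:44170511-44170929), a sperm sheath protein gene, they were 15.3 and 12.5, and the nearest sgP1 peak was 791 kb away. Inside DGKB (chr7:14303477-14303862), a diacylglycerol kinase, they were 15.4 and 11.8. The region near SPRY1 (chr4:123478754-123479179), an inhibitor of receptor tyrosine kinase signalling, had 13.4 and 13.2. It was the only named lost region with no peak in either sgP2 pan-HNF4α list, and it had none in the sgP2 lists of the P1 antibody or in the induced lines. The named lost regions kept the same lists at a −log10 q of at least 5 or 20 and at equal length.

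**Figure D3:**
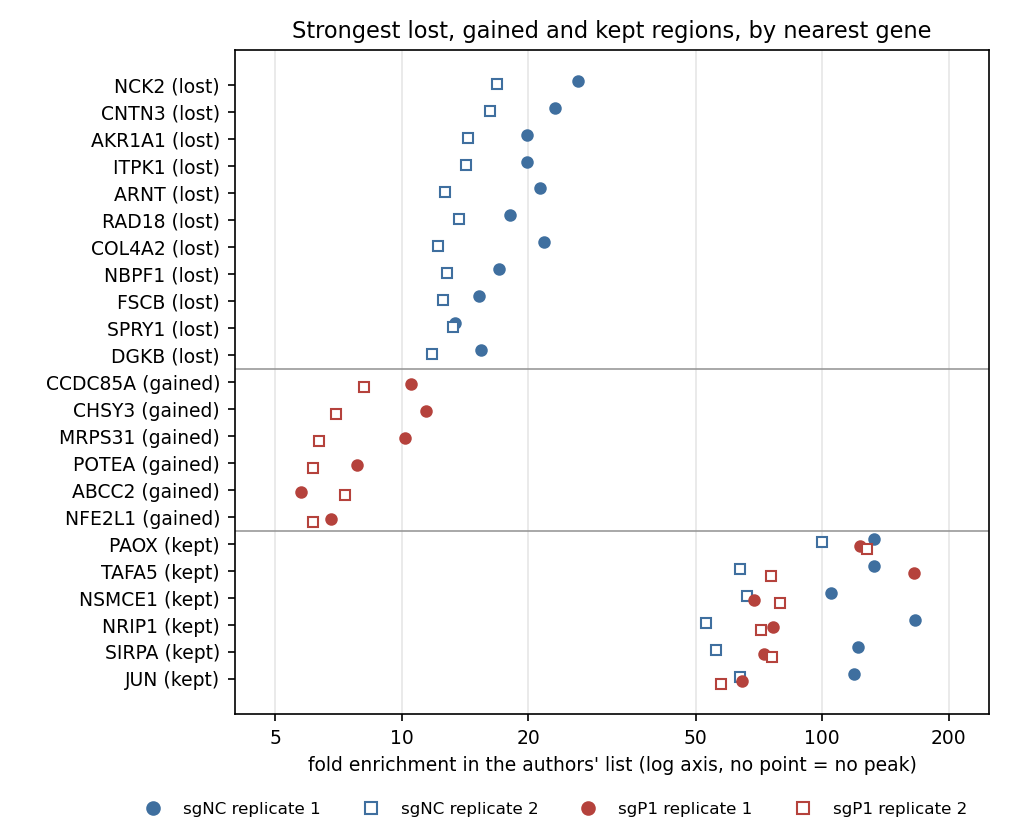
Fold enrichment (authors' values, log axis) of the strongest lost, gained and kept regions in each sgNC and sgP1 library, by nearest gene, where a missing point means no peak. Lost regions lie between 11.8 and 26.2 in sgNC, gained regions between 5.77 and 11.4 in sgP1, and kept regions at 52.9 or above in all 4 libraries.

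The strongest gained regions did not reach the enrichment of the strongest lost regions. They lay near CCDC85A (10.5 and 8.13 in the sgP1 lists), CHSY3, a chondroitin sulfate synthase (11.4 and 6.96), and MRPS31, a mitochondrial ribosomal protein (10.2 and 6.36). The next were near POTEA (7.83 and 6.15), near ABCC2, the export pump of bile conjugates (5.77 and 7.32), and inside NFE2L1, a stress-response transcription factor (6.8 and 6.15). At ABCC2 (chr10:99775885-99776240) the nearest sgNC peaks were 3.10 and 6.15 kb away, and both sgP2 lists had a peak in the region. At a −log10 q of at least 20, none of the 6 regions had a peak in both sgP1 lists.

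The strongest kept regions had similar positions in all 4 lists. Near PAOX, a polyamine oxidase (chr10:133377826-133379547), the fold enrichment was 133 and 100 in sgNC and 123 and 128 in sgP1. Near NRIP1, a nuclear receptor corepressor (chr21:15140090-15141981), it was 166 and 52.9 in sgNC and 76.6 and 71.7 in sgP1. The others lay inside TAFA5 and near NSMCE1, SIRPA and JUN, and each had a peak in both sgP2 lists of either antibody. Near NRIP1 both sgP1 values lay between the sgNC values, and near PAOX likewise.

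The 8589 kept regions were also ranked within each list. Both sgP1 ranks were below both sgNC ranks in 1667 regions (19.4%) and above them in 1791 (20.9%). Ranks within a list balance by construction, so these similar shares say nothing of an overall shift. Of the 1236 kept regions within 1 kb of a gene start, 25.8% had both sgP1 ranks higher and 11.7% lower. Kept regions with a P1-antibody peak in both sgP2 lists, 2789 in number, had 18.9% higher and 22.3% lower. Those with no such peak in either sgP2 list, 3873 in number, had 22.5% higher and 16.1% lower. These shares are given as descriptions, since regions are not replicates of a genotype.

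Lost regions lay somewhat less often inside genes than kept regions. That order held at equal list length (50.4% against 54.9%) and without any 1 library, by least without sgNC replicate 2 (54.1% against 54.8%). Lost regions also lay less often at gene starts, a gap that was wider in shortened lists but reversed without sgNC replicate 2. Inside protein-coding genes lay 50.9% of lost, 55.0% of kept and 48.2% of gained regions. Within 1 kb of a start of a protein-coding gene lay 13.3% of lost regions (exact 95% interval 11.9 to 14.7, counting error only), 15.1% of kept regions (14.4 to 15.9) and 13.2% of gained regions (7.41 to 21.2). Regions on chromosome 8 were not scored for distance to starts. Among regions of like strength the difference at starts was larger in the 3 weaker quartiles. With lists of equal length 8.30% of lost and 14.1% of kept regions were at starts. The shares were 7.58% and 13.4% among peaks whose −log10 q reached 20. Of the 1037 regions lost at that threshold, only 68 were also lost with the full lists, so this is largely another set. Without sgNC replicate 2 the order reversed, with 19.1% of lost and 15.6% of kept regions at starts. Leaving out any other library kept the direction. By quartile of the mean sgNC percentile, from the weakest up, 16.5%, 9.34%, 5.73% and 10.0% of lost regions were at starts, against 22.7%, 18.6%, 15.1% and 11.6% of kept regions. The strongest quartile held 20 lost regions, so its share is imprecise. Over 100 kb from any protein-coding gene lay 10.3% of lost, 8.99% of kept and 16.4% of gained regions.

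Lost regions were spread over the genome and not set apart from kept ones. The share of regions in both sgNC lists that was lost ran from 14.7% on chromosome 7 to 22.6% on chromosome 18, leaving aside chromosome Y with 4 regions and none lost. A lost region lay a median of 40.9 kb from the nearest kept region, and 23.3% had a kept region within 10 kb. For kept regions the median distance to the next kept region was 33.6 kb and the share within 10 kb was 25.6%. The share of all peaks at gene starts was 17.2% and 14.6% in the sgNC lists and 15.6% and 15.8% in the sgP1 lists, a difference of -0.164 percentage points with overlapping groups (two-sided exact permutation p = 1.00, adjusted 1.00). It changed sign without sgNC replicate 1 (1.15) and at equal length (1.99). The share inside genes was 53.9% and 53.3% in sgNC and 53.9% and 54.0% in sgP1 (difference 0.323, exact permutation p = 0.667, adjusted 0.889).

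The HNF4 motif was searched in the promoters that the regions touched. The motif CAAAGTCCA, on either strand, was present in 31 of 1327 promoter windows that overlapped a kept region (2.34%, exact 95% interval 1.59 to 3.30) and in 1 of 274 that overlapped a lost region (0.365%, 0.00924 to 2.02). Over all 22199 promoter windows the share was 0.356%. The looser CAAAGNNCA, which includes the former, was in 9.12% of kept, 6.20% of lost and 4.63% of all windows. The AP-1 motif TGANTCA was in 7.16%, 8.76% and 6.15%, and the forkhead motif TGTTTAC in 3.01%, 1.46% and 2.85%. The intervals of lost and kept promoters overlapped for each motif, and the lost windows were fewer and belonged to weaker peaks. The 1327 kept windows belong to 1095 genes and the 274 lost windows to 238. Windows of the same gene can overlap and share a motif, so they are not separate observations, which the intervals do not allow for.

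The lost promoter with this motif and 5 kept ones, chosen after their values were seen for their known roles in gut or lipid metabolism, show the match in its setting, with the motif in capitals. CEP89 is a centrosomal protein gene (chr19:32971961-32972029, minus strand). MUC13 (chr3:124934764-124934832, minus), a membrane mucin, and MYO1A (chr12:57050121-57050189, minus), a brush border myosin, are intestinal genes. TREH (chr11:118679685-118679753, minus) encodes the brush border enzyme trehalase, APOBEC1 (chr12:7665898-7665966, minus) the editing enzyme of apolipoprotein B mRNA, and HMGCS1 (chr5:43313191-43313259, minus) an enzyme of cholesterol synthesis. The sequences are RefSeq's, read 5′ to 3′ along the gene.
CEP89, lost: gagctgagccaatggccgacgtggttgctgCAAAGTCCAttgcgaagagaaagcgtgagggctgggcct
MUC13, kept: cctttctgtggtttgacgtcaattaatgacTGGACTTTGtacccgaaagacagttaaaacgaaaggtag
MYO1A, kept: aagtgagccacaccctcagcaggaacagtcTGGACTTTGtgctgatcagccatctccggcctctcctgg
TREH, kept: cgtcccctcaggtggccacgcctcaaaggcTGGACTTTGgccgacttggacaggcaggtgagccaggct
APOBEC1, kept: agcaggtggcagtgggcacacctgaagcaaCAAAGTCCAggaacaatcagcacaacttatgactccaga
HMGCS1, kept: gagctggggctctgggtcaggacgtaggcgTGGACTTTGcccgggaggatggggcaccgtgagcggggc
The region at CEP89 had a fold enrichment of 5.46 and 6.32 in sgNC and a peak in both sgP2 pan-HNF4α lists. At MUC13 the values were 22.2 and 18.7 in sgNC and 15.1 and 19.9 in sgP1, and at MYO1A they were 30.7 and 21.5 in sgNC and 24.6 and 22.9 in sgP1. At TREH, a weak kept site, they were 6.86 and 9.05 in sgNC and 5.06 and 8.83 in sgP1. At HMGCS1 they were 15.3 and 17.6 in sgNC and 17.7 and 29.6 in sgP1, so that both sgP1 values exceeded both sgNC values, as in 4.09% of kept regions.

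Libraries that took no part in the rule separated lost from kept regions to different degrees. In the sgP2 pan-HNF4α lists a peak was present at 29.4% and 46.0% of lost regions and at 89.6% and 94.2% of kept regions. These lists share no library with the regions' own lists, but a comparison of sgP2 with sgNC would use the same controls, so the shares are not a measure of likeness between guides. Both sgP2 lists had a peak at 499 lost regions (20.7%), and neither had one at 1093 (45.3%). In the sgP2 lists of the P1 antibody, a peak was present at 3.53% and 1.82% of lost regions and at 47.2% and 40.2% of kept regions. These lists held 5200 and 3916 peaks, against 12345 and 15116 in the sgP2 pan-HNF4α lists. A missing peak in such short lists does not show that P1 isoforms were absent from a region. In the sgNC lists of the P1 antibody, which were shorter still, lost regions held 3 and 2 peaks and kept regions 616 and 224.

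The induced lines gave smaller differences between the classes. In Panc10.05 a peak was present at 43.2% and 52.6% of lost regions with P1-α2 and at 50.9% and 46.5% with P2-α8, against 67.6% and 70.0%, and 64.8% and 62.3%, of kept regions. In BxPC3 it was present at 50.1% and 40.9% of lost regions with P1-α2 and at 21.8% and 22.8% with P2-α8, against 70.0% and 62.1%, and 43.4% and 41.8%, of kept regions. The BxPC3 P2-α8 lists held 12681 and 14666 peaks and the BxPC3 P1-α2 lists 41808 and 33737, and list length moves with these shares. Gained regions had lower shares than lost regions in every library of the induced lines, from 5.45% to 31.8%.

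**Figure D4:**
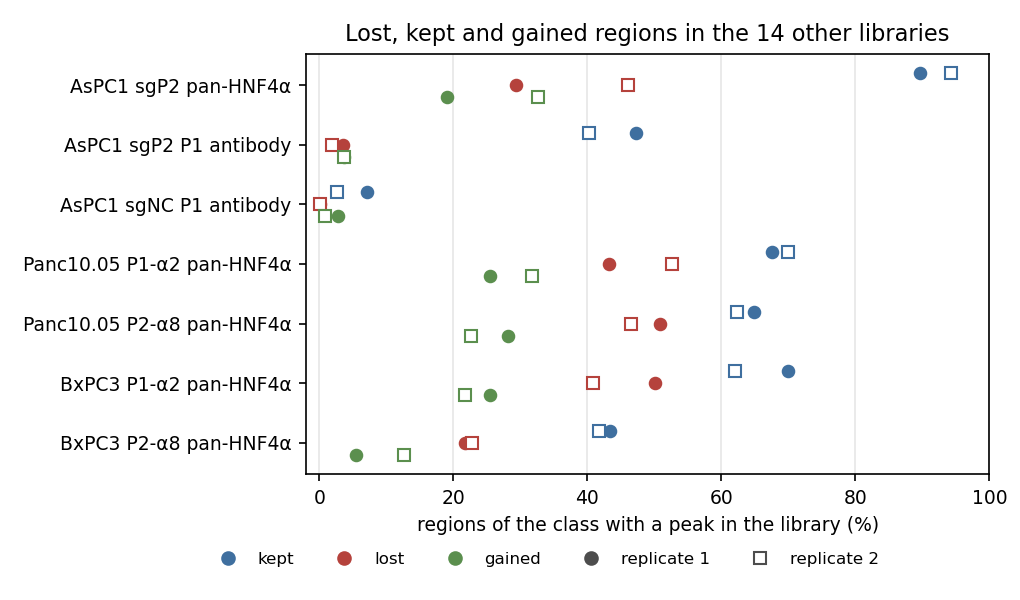
Percent of lost, kept and gained regions with a peak in each of the 14 other libraries, by group (rows), antibody and replicate (filled or open symbols). Kept regions exceed lost regions in all 14 libraries, with the widest gaps in the AsPC1 sgP2 libraries.

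Part of this separation moved with strength. Within the quartile of regions just below the median sgNC percentile, a Panc10.05 P1-α2 peak was present at 51.3% and 58.4% of 745 lost regions and at 55.9% and 61.2% of 1682 kept regions. For BxPC3 P1-α2 the values in that quartile were 57.6% and 49.0% of lost and 56.4% and 46.4% of kept regions. In that quartile lost and kept regions differed by less than the replicates of each of these groups. In the quartile just above the median, lost regions had the higher share in most lists of the induced lines, with 70.9% and 65.5% of lost against 67.7% and 58.2% of kept regions for BxPC3 P1-α2. For Panc10.05 P2-α8 the values there were 67.0% and 61.7% of lost against 59.4% and 57.2% of kept regions, and for Panc10.05 P1-α2 63.1% and 69.4% against 64.0% and 65.6%. The AsPC1 sgP2 pan-HNF4α lists kept the direction of all regions. In the quartile just below the median they had a peak at 37.4% and 57.2% of lost against 79.2% and 88.5% of kept regions. Quartiles match regions by sgNC strength only. Kept regions also had a peak in both sgP1 lists and lost regions in neither, so the classes may still differ in strength within a quartile. This was not tested. In the quartile just above the median, the sgP2 lists had a peak at 55.8% and 72.8% of 206 lost and at 92.3% and 96.5% of 2710 kept regions. With the P1 antibody in sgP2 the values there were 14.1% and 7.28% of lost and 35.5% and 26.5% of kept regions. The 20 lost regions of the strongest quartile had an sgP2 pan-HNF4α peak in 95.0% and 90.0% of cases.

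Genes were then classed by the regions within 50 kb of their span. Of 20037 protein-coding genes, 18.9% had a lost region, 46.6% a kept region and 1.04% a gained region, and 5.58% (1119 genes) had a lost and no kept region. At equal list length, 486 genes had a lost and no kept region. These shares are the background for 9 lists of 10 to 25 genes. Nearness does not show that a gene is controlled by the region.

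With the full lists, genes of gastric identity had the highest share with a lost and no kept region of the 9 lists, which did not hold at equal list length. Of 12 such genes, 5 had a lost region, 4 of them with no kept region (33.3%), and 2 had a kept region (16.7%). TFF1 and TFF2, secreted trefoil peptides of gastric mucus, share 1 lost region (chr21:42351126-42351637) that lies 0.387 kb from TFF2, with a fold enrichment of 6.91 and 6.08 in sgNC and no peak in either sgP2 list. That region also lies within 50 kb of TFF3, so these genes are not separate observations. Near MUC5AC, the main secreted gastric mucin, a region 19.0 kb away had 6.61 and 4.65, and near VSIG1, a gastric junction protein, a region 12.8 kb away had 6.57 and 5.54. All of these were weak peaks, at percentiles 17.4 to 51.2 of the sgNC lists. At equal list length the count fell from 4 genes to 1 (8.33%, the same share as for clock genes, beside 2.43% of all genes), and that gene was MUC6, named here after its value was seen, whereas without sgNC replicate 1 the same 4 genes were found.

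Genes of intestinal identity mostly kept a region. Of 16 genes, 14 had a kept region (87.5%, against 46.6% of all genes), 4 of these had a lost region as well, and none had a lost region alone. The strongest kept region at GPA33, a gut surface antigen, had a fold enrichment of 57.1 and 34.0 in sgNC and 24.5 and 32.6 in sgP1, while a lost region 31.4 kb from the gene had 5.48 and 4.11. CDH17, the intestinal cadherin, had a kept region inside the gene with 36.8 and 25.3 in sgNC and 33.2 and 32.8 in sgP1, and lost regions with 5.32 and 4.35 and with 4.49 and 4.76. LGALS4, a galectin of gut epithelium, had 27.0 and 19.7 against 14.6 and 16.5 at its kept region, and PHGR1 had 24.0 and 13.1 against 10.2 and 8.65, sgNC against sgP1. At PHGR1, LGALS4 and GPA33 both sgP1 values were below both sgNC values, and at CDH17 the groups overlapped. Such lower values were common, given the 37.4% of all kept regions.

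Transcription factors of endoderm and pancreas were near the background. Of 22 genes, 12 had a kept region (54.5%), 4 a lost region (18.2%) and 1 a lost and no kept region (4.55%). That gene was NR5A2, a nuclear receptor of the exocrine pancreas, with a lost region inside the gene (chr1:200040247-200040921; fold enrichment 10.4 and 6.45 in sgNC) and another 0.163 kb outside it (4.50 and 3.23). NR5A2 remained in this class at equal list length and without sgNC replicate 1. Without that library the list had 3 such genes (13.6%, beside 7.88% of all genes). GATA4, an endoderm factor, had a lost region 48.0 kb away (8.26 and 4.29) and a kept region inside the gene (10.7 and 7.12 in sgNC, 12.1 and 7.42 in sgP1). EHF, an epithelial ETS factor, had a lost region 14.7 kb away (8.01 and 4.39) and a kept region inside the gene (20.0 and 17.6 in sgNC, 13.8 and 13.7 in sgP1). HNF4A, described above, was the remaining member with a lost region. PDX1 and CDX2 share 1 kept region, so these genes are not separate observations.

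Liver and metabolic targets of HNF4α had a lower share with a lost region than all genes, by a small count. Of 24 genes, 2 had a lost region (8.33%, against 18.9% of all genes) and 10 a kept region (41.7%, against 46.6%). Some of the latter share 1 kept region, so these genes are not separate observations. UGT1A1, which conjugates bilirubin, had a lost region inside the gene (5.73 and 5.07) and a kept region 8.85 kb outside it (28.9 and 16.6 in sgNC, 16.5 and 12.9 in sgP1). CPT1A, the entry enzyme of mitochondrial fatty acid oxidation, had no lost region. Its kept region had 22.6 and 16.6 in sgNC and 9.86 and 8.50 in sgP1. A kept region inside CYP3A7 and 36.5 kb from CYP3A4 had 15.0 and 10.3 in sgNC and 11.8 and 8.19 in sgP1.

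Among markers of the classical and basal-like subtypes of pancreatic cancer, more classical than basal-like genes had a kept region. Kept regions were in all 4 lists, so this is not a difference between sgP1 and sgNC. Of all genes, 46.6% had a kept region, 18.9% a lost region and 5.58% a lost and no kept region. Some classical markers share 1 kept region and are not separate observations. Of 24 classical markers, 16 had a kept region (66.7%), 5 a lost region (20.8%) and 2 a lost and no kept region (8.33%), namely TFF1 and TFF3 through the region they share. CTSE, a gastric protease, had a lost region 8.43 kb away (7.0 and 5.29 in sgNC) beside a strong kept region (34.4 and 21.1 in sgNC, 28.8 and 34.4 in sgP1). Of 25 basal-like markers, 8 had a kept region (32.0%), 8 a lost region (32.0%) and 3 a lost and no kept region (12%). CTSV, a lysosomal protease, had the strongest of these lost regions, 23 kb away with 12.3 and 11.5 in sgNC, followed by DHRS9 with 9.72 and 3.91 and FGFBP1 with 5.37 and 4.51. SLC2A1, the glucose transporter GLUT1, had a lost region 40.6 kb away (12.5 and 5.92) and a kept region (17.0 and 16.9 in sgNC, 18.2 and 19.5 in sgP1). KRT7 had the only gained region of the 9 lists and was named after its value was seen. At equal list length no classical marker and 2 basal-like markers, CTSV and CST6, had a lost and no kept region.

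**Figure D5:**
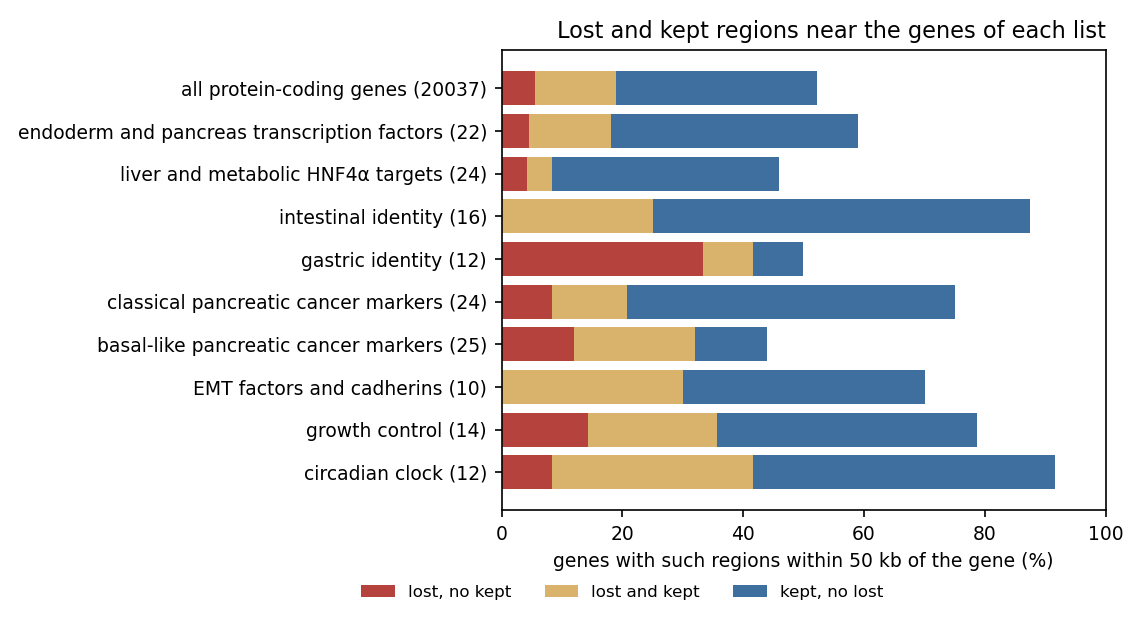
Percent of genes with a lost and no kept region, with both, or with a kept and no lost region within 50 kb, for all 20037 protein-coding genes and 9 lists (number of genes in parentheses). Gastric identity has 33.3% and intestinal identity 0% with a lost and no kept region, against 5.58% of all genes.

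Genes of epithelial state, growth and the clock had both kinds of region. Among 10 factors of epithelial-mesenchymal transition and cadherins, 3 had a lost region (30.0%), 7 a kept region (70.0%) and none a lost region alone. Beside these stand 18.9%, 46.6% and 5.58% of all genes, and with 10 genes the counts are small. At equal list length 1 of the 10 had a lost region. At CDH1, which encodes E-cadherin, a lost region inside the gene had 4.02 and 6.16 in sgNC while a kept region had 42.9 and 29.1 in sgNC and 30.2 and 17.4 in sgP1. At CDH3, P-cadherin, there were 3 lost regions, the strongest with 6.22 and 5.38. Of these, 1 is the lost region inside CDH1, so these genes are not separate observations. At VIM, vimentin, 1 lost region had 7.45 and 5.31. ZEB2, a repressor of E-cadherin, had a kept region and no lost region.

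Of 14 genes of growth control, 5 had a lost region (35.7%), 9 a kept region (64.3%) and 2 a lost and no kept region (14.3%). The shares of all genes were 18.9%, 46.6% and 5.58%. The higher share with a lost region did not hold at equal list length, where 1 of the 14 had one, beside 1408 of 20037 genes. CCND1, which encodes cyclin D1, had a lost region 1.95 kb away with 5.42 and 2.99 in sgNC. These were weak peaks, at percentiles 32.5 and 0.585 of the sgNC lists. CDKN1A, which encodes the cell-cycle inhibitor p21, had lost regions 34.7 kb away (8.75 and 5.37) and 4.69 kb away (6.51 and 5.22), and it alone of this list remained in the class at equal list length. E2F1 and YAP1 had a lost and a kept region each.

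Of 12 clock genes, 5 had a lost region (41.7%), 10 a kept region (83.3%) and 1 a lost and no kept region (8.33%), beside 18.9%, 46.6% and 5.58% of all genes. At equal list length 2 of the 12 had a lost region, beside 1408 of 20037 genes. The clock gene with a lost and no kept region was CRY1, a repressor of the clock. Its lost region 14.9 kb away (chr12:106976134-106976700) had 10.2 and 9.0 in sgNC and a peak in 1 of the sgP2 lists. CRY1 remained in the class at equal list length and without sgNC replicate 1. NPAS2, an activator of the clock, had 2 lost regions (8.30 and 4.61, and 5.35 and 5.49) and a kept region with 31.0 and 15.9 in sgNC and 16.7 and 20.2 in sgP1. DBP and CRY2 also had lost and kept regions. Over the 9 lists, named lost regions of these genes had sgNC values of 2.99 to 12.5, below the 11.8 to 26.2 of the strongest lost regions except at CTSV and SLC2A1.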

How the data were processed

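The deposited narrowPeak files hold the peaks of single libraries, not of pooled replicates. For each peak the authors give a fold enrichment (a linear ratio), the p-value and the q-value on the −log10 scale, and an integer score close to 10 times the −log10 q. The submitters' processing notes name Bowtie2 2.2.9, MACS2 2.2.7 and the builds hg38 and mm10 without their roles. Libraries were crosslinked with disuccinimidyl glutarate and formaldehyde, per the labels' protocols. Depth is unknown, so no interval for reads was given, and the 14 input libraries were not used here. For BxPC3 P2-α8 the genotype label was followed over the title.

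Peaks sharing at least 1 bp were merged with Python 3.11.15 (numpy 2.4.6, pandas 2.3.3, scipy 1.17.1). On simulated lists the merging code gave 0 wrong classes, and 0 calls differed from bedtools 2.31.1. Gene names, starts and promoter windows (250 bp before to 50 bp after a start) came from RefSeq, GRCh38.p14. In the 4 lists 14.6% to 17.2% of summits lay within 1 kb of a start, against 2.52% to 2.69% after a shift of 100 kb. All 152 list symbols matched. Measures of the lists were compared by exact permutation tests with Benjamini-Hochberg adjustment, and regions by counts with exact binomial intervals. Replicate numbers come from the titles.

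Named regions were the 12 lost and 6 kept regions of highest mean percentile and the 6 gained ones, with up to 4 genes per list, taking those with a lost and no kept region before the others. Some items that this rule selects are not reported here. Members and lists were chosen with earlier results of these data known. Alternatives covered q thresholds, overlap rules, equal list length, leaving out each library, a replicate block and the distances of 5 and 10 kb. Those for the gene lists, for ranks by −log10 p and for the HNF4A promoters were added after seeing the data.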

Additional observations from a re-analysis of the deposited data

How the results depend on the processing

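Of 276 values under an alternative, 5 reversed and 82 moved, counts by over 1.5 times and shares by more than their spread. The other 189 stayed within that or, for tests, kept their direction whatever their size, since 2 libraries against 2 allow no exact permutation p below 0.333. Same-numbered libraries did not deviate together (correlation -0.0173), so they were not treated as pairs; under a replicate block the peak number ratio was -0.58 (exact permutation p = 0.500, the smallest possible) and no call changed. Leaving out a library gave ratios of -0.92 to -0.24 for peak number and -1.03 to -0.21 for covered length. The HNF4 motif around summits was not run, since no genome was used here.

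The difference in the share of peaks at starts (-0.164) reversed when peaks under a −log10 q of 5 (0.376) or 20 (0.787) were dropped, at equal length (1.99) and within 5 kb (0.0936), and ranged from -1.48 to 1.15 without a library. A −log10 q of at least 20 gave 1037 lost, 10 gained and 3175 kept regions, of which 68, 0 and 3175 had the same class with the full lists. For kept regions this holds by construction, since peaks of a shortened list are also in the full list. Equal length by −log10 p gave 825 lost and 596 gained regions, close to the 837 and 615 by fold. Gained regions numbered 463 with a reciprocal overlap of 50% and 342 with summits within 100 bp. Without a library, lost regions numbered 3295 to 10194 (most without sgNC replicate 2), gained 154 to 1090 (most without sgP1 replicate 2) and kept 8674 to 10404. The rule for a region is looser with a list left out, so larger counts follow largely from the rule. Genes with a lost and no kept region then numbered 1277 to 3747, against 486 at equal length.

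The mean share of lost regions with an sgP2 pan-HNF4α peak (37.7%) was 59.1% at equal length, 93.2% at a −log10 q of at least 20 and 17.8% to 47.5% without a library; for kept regions (91.9%) it was 95.6%, 99.8% and 86.4% to 91.6%. With the P1 antibody in sgP2 it was 6.15%, 29.2% and 0.956% to 4.22% for lost (2.68%), and 51.9%, 80.9% and 37.2% to 43.5% for kept regions (43.7%). The cause was not tested, though presence in a list depends on its length by construction.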
